A study of Homo sapiens with 7 samples.

Results

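The microRNA miR-423 yields a mature RNA from each arm of its hairpin, miR-423-5p (hsa-miR-423-5p in the table) and miR-423-3p (hsa-miR-423-3p). The members were the rows of the deposited table that carry either name, which gave 2 of the 480 mature names. The libraries were small RNA from miR-CATCHv2.0 captures of A375, a human melanoma cell line. In this method probes fish one mRNA out of crosslinked cells, and the microRNAs that come along with it are sequenced. Cells were harvested 24 h after seeding and crosslinked with 1% formaldehyde for 10 min. There were 3 captures with the ODD probes and 3 with the EVEN probes, both against the 3′ UTR of the X1 isoform of BRAF, a kinase of the MAPK pathway, and 1 capture with scrambled probes. The labels give no genotype or drug for any capture. ODD and EVEN libraries together are called X1 probes below. Total small RNA of the cells was not analysed here, so levels are shares of the captured microRNAs of 1 cell line.

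A microRNA hairpin is cut by Drosha and Dicer into a duplex, and an Argonaute protein keeps one strand of it, so the arms of a hairpin usually differ in amount. The retained strand finds its target mRNAs mainly through its seed, bases 2 to 8. miR-423 is present in many tissues. Its 5p arm is known as a plasma marker studied in heart failure and as a common choice for normalising microRNA measurements.

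The sequences below, from RefSeq on GRCh38.p14, are shown because the arms carry different seeds and because an annotated hairpin on the opposite strand repeats one of them. Capitals mark the seed.

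miR-423-5p: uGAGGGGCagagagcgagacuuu

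miR-423-3p: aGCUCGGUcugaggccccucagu

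miR-3184-5p: uGAGGGGCcucagaccgagcuuuu

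miR-3184-3p: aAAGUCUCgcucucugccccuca

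The MIR423 hairpin lies on the plus strand at chr17:30117079-30117172, with the 5p arm at chr17:30117095-30117117 and the 3p arm at chr17:30117131-30117153. It lies within the span of NSRP1, a gene for a nuclear speckle splicing protein, 263 bases after the start of that gene. Both arms are 23 bases long, with a G and C content of 56.5% for 5p and 65.2% for 3p. The hairpin of MIR3184 covers the same bases on the minus strand, at chr17:30117086-30117160. Its 3p product is the exact reverse complement of miR-423-5p. Its 5p product starts with the same 8 bases as miR-423-5p and so has the same seed, and a run of 21 of its bases pairs with miR-423-3p. Among the reference microRNAs that seed belongs to 2, miR-423-5p and miR-3184-5p, and the seed of miR-423-3p to 1. Levels of miR-3184 were not analysed here. Whether the authors' counting used strand is not given in the sources used here, so reads of the overlapping products cannot be told apart from those of miR-423.

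Depth, counted over all rows of the table, was 4049 to 35508 reads per library, and the scrambled library had 4647. Every deposited RPM value was a whole multiple of 1 read's worth, within a tolerance of 1e-06 reads, so reads could be recovered for all values. Of 6 microRNAs listed as melanocyte and melanoma markers, 3 had rows, miR-204-5p, miR-146a-5p and miR-509-3p. Their summed level was 6672 to 9020 RPM with X1 probes and 5595 RPM with scrambled probes. Most of it was miR-146a-5p, which averaged 5119 RPM with X1 probes and had 4519 RPM with scrambled probes. In the same order, miR-204-5p had 2286 and 861 RPM and miR-509-3p had 71.4 and 215 RPM. miR-211-5p, miR-508-3p and miR-514a-3p had no row to check. The sums of markers of other cell types were lower. Single ones, such as miR-9-5p at a mean of 372 RPM with X1 probes, were above miR-509-3p. The 5 blood markers with rows (of 6) summed to 0 to 629 RPM with X1 probes and 215 RPM with scrambled probes, and the 3 epithelial ones (of 5) to 108 to 494 RPM against 0. The 2 muscle markers (of 3) summed to 84.5 to 741 RPM against 646 RPM, the 3 neuronal ones to 185 to 988 RPM against 1291 RPM, and the 2 endothelial ones to 0 to 420 RPM against 430 RPM. The part of these markers in the results on miR-423 was not tested. In bulk captures, fewer cells of a type and less RNA per cell cannot be told apart.

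miR-423-5p was among the most abundant captured microRNAs in all 7 libraries. In the ODD captures it had 18111, 27318 and 25685 RPM in replicates 1 to 3, from 196, 970 and 104 reads. In the EVEN captures it had 21847, 33467 and 30627 RPM, from 203, 485 and 146 reads. The scrambled capture had 27760 RPM, from 129 reads. The scrambled value lay above the 3 ODD values and within the EVEN range, and the ODD and EVEN ranges overlapped. These levels correspond to 1.81% to 3.35% of the reads summed over all rows with X1 probes and 2.78% with scrambled probes. In that sum a microRNA listed under several hairpins is counted once per hairpin. Over 1 row per mature name, the shares of miR-423-5p were 2.50% to 4.57% with X1 probes and 3.71% with scrambled probes. By rank within a library, miR-423-5p stood between 5th and 9th with X1 probes and 6th with scrambled probes.

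From low to high the libraries ran ODD replicate 1, EVEN replicate 1, ODD replicate 3, ODD replicate 2, scrambled, EVEN replicate 3 and EVEN replicate 2. Each library's exact Clopper-Pearson 95% interval overlapped that of its neighbour in this order. The ends of the order were apart, with an interval of 15683 to 20804 RPM for ODD replicate 1 and of 30598 to 36525 RPM for EVEN replicate 2. The intervals hold counting error alone. They treat each read as an independent molecule, which reads that carry no molecular identifier need not be, so they can be too narrow. The SD of log2 RPM over the 6 X1-probe libraries was 0.32 for miR-423-5p, 3.20 times the 0.10 that counting error alone gives at these depths.

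miR-423-3p, the less abundant arm, was measured with fewer reads. It had 4897, 3239 and 3458 RPM in ODD replicates 1 to 3, with 53 reads in replicate 1 and 14 in replicate 3. It had 4305, 2553 and 4405 RPM in EVEN replicates 1 to 3, from 40, 37 and 21 reads. The scrambled capture had 5595 RPM, from 26 reads. The scrambled library was above every X1-probe library for this arm, while the ODD and EVEN ranges overlapped. The X1-probe libraries were thus lower in 6 of 6, as were 22.7% of the 242 tested microRNAs. The interval of the scrambled value, 3658 to 8187 RPM, overlapped that of every X1-probe library other than EVEN replicate 2, whose interval was 1798 to 3517 RPM. The rank of miR-423-3p within a library was 28 to 43 with X1 probes and 23 with scrambled probes. Its SD of log2 RPM over the X1-probe libraries, 0.35, was 1.33 times the 0.26 of counting error.

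**Figure D1:**
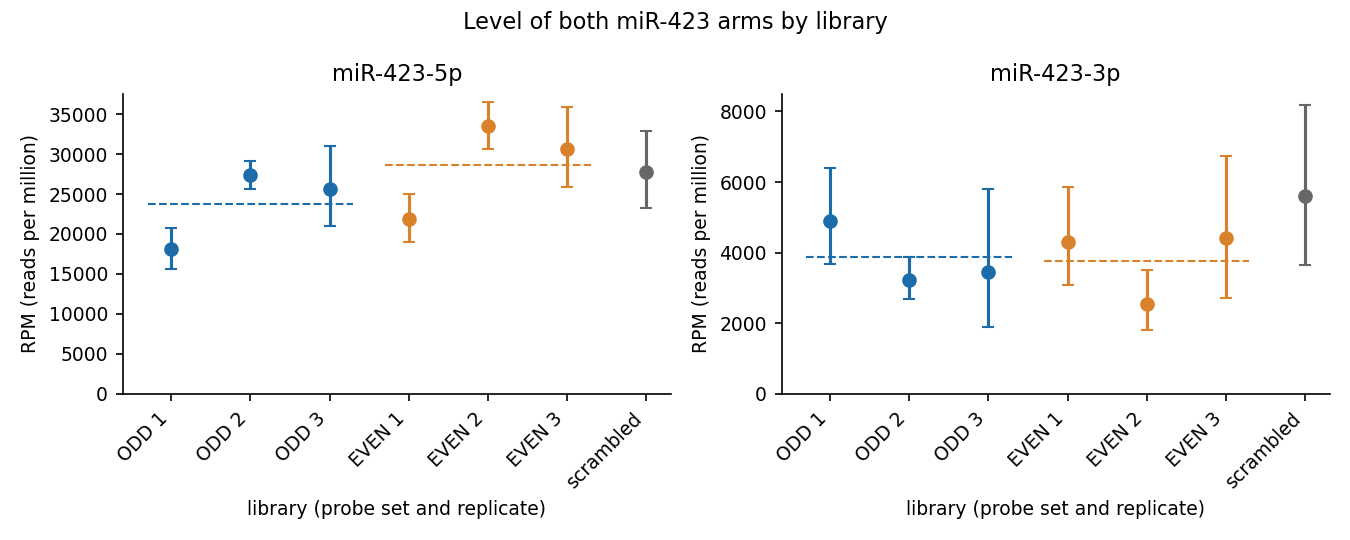
RPM of miR-423-5p (left) and miR-423-3p (right) in each library, with exact 95% intervals on reads; dashed lines are the means of the 3 ODD and 3 EVEN libraries. For miR-423-5p the scrambled library at 27760 RPM sits within the X1-probe range, and for miR-423-3p the scrambled library at 5595 RPM is the highest point, with an interval that overlaps most of the others.

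The captures ask which microRNAs come with BRAF-X1, and neither arm of miR-423 passed the test against scrambled probes. Differences were tested with limma on log2(RPM + 10) over all 242 tested microRNAs, with Benjamini-Hochberg adjustment at 0.05, and fold changes are on that scale. Of the members, 0 of 2 passed for X1 probes against scrambled, where 0.826% of all tested microRNAs did. With 1 scrambled library, the spread of that group was taken from ODD and EVEN. The p-values therefore measure the spread between captures of 1 cell line. Most of the weight in that spread came from other microRNAs of similar level (prior degrees of freedom of 28.6 against 4 residual).

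miR-423-5p averaged 26176 ± 5627 RPM with X1 probes (SD, n = 6), against 27760 RPM with scrambled probes. The log2 difference was -0.11 (SE 0.31, 95% interval -0.74 to 0.51, limma adjusted p = 0.836). In fold terms the interval ran from 0.601 to 1.42. miR-423-3p averaged 3809 ± 873 RPM with X1 probes (SD, n = 6), against 5595 RPM with scrambled probes. Its log2 difference was -0.59 (SE 0.41, 95% interval -1.42 to 0.25, limma adjusted p = 0.673), which in fold terms is 0.373 to 1.19. Under this fit the interval was narrower for miR-423-5p than for its other arm. With no trend of variance on level in the fit, both log2 intervals widened. They were then -1.48 to 1.25 for miR-423-5p and -2.04 to 0.86 for miR-423-3p, so the bounds depend on that setting. The median log2 difference over all tested microRNAs was 0.096. Since RPM is a share of a library, neither value would register a capture that held more or less microRNA in all.

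Each probe set against scrambled gave 0 of 2 members as well, where 0.826% of all tested microRNAs passed in each comparison. Both comparisons use the same scrambled library. With ODD probes the log2 difference was -0.25 for miR-423-5p (95% interval -0.91 to 0.41, limma adjusted p = 0.729) and -0.56 for miR-423-3p (95% interval -1.45 to 0.33, limma adjusted p = 0.729). With EVEN probes it was 0.022 for miR-423-5p (95% interval -0.64 to 0.69, limma adjusted p = 0.969) and -0.62 for miR-423-3p (95% interval -1.51 to 0.28, limma adjusted p = 0.667). Without ODD replicate 1 the value of miR-423-5p with ODD probes was -0.068. That with EVEN probes lay close to 0, and its sign turned under quantile normalization (-0.068) and without EVEN replicate 2 or EVEN replicate 3 (-0.10 and -0.038).

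Set against each other, the 2 probe sets for BRAF-X1 gave 0 of 2 members, where 0.413% of all tested microRNAs passed. miR-423-5p averaged 23705 ± 4912 RPM in ODD captures and 28647 ± 6058 RPM in EVEN captures (SD, n = 3 each). The log2 difference was -0.27 (SE 0.23, 95% interval -0.74 to 0.20, limma adjusted p = 0.979). An exact two-sided permutation test of the mean RPM gave p = 0.4, where 3 against 3 cannot go below 0.1. miR-423-3p averaged 3865 ± 901 RPM in ODD captures and 3754 ± 1042 RPM in EVEN captures (SD, n = 3 each). Its log2 difference was 0.060 (SE 0.31, 95% interval -0.57 to 0.69, limma adjusted p = 0.982), and the sign turned under quantile normalization (-0.049) and without ODD replicate 1 or EVEN replicate 2 (-0.12 and -0.20). The difference of -4942 RPM for miR-423-5p was about as large as the SD within each set, and that for miR-423-3p was smaller than it. Single libraries moved the value for miR-423-5p, to -2145 RPM without ODD replicate 1, -2532 RPM without EVEN replicate 2 and -8342 RPM without EVEN replicate 1.

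**Figure D2:**
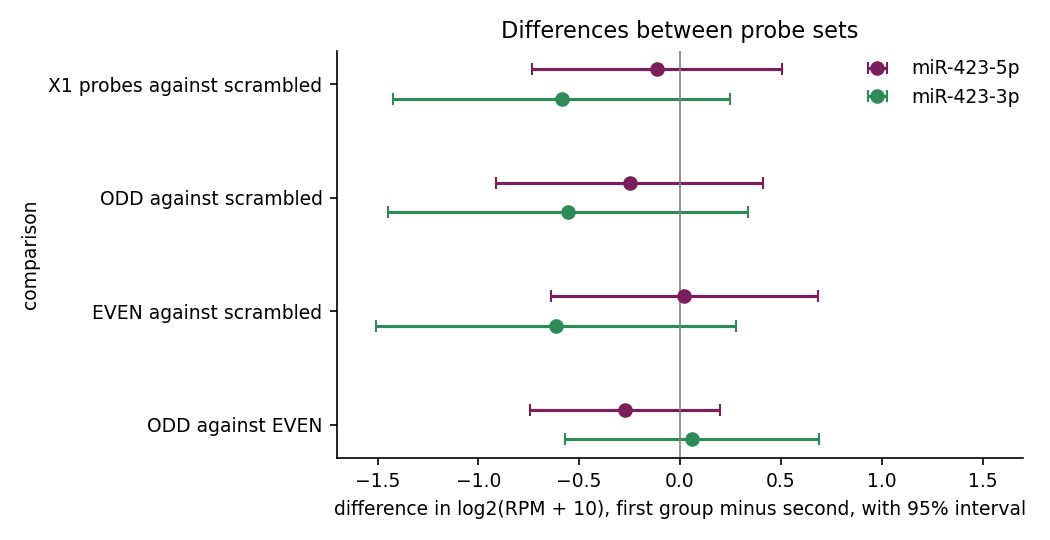
Log2 differences of both arms in the 4 comparisons, first group minus second, with 95% intervals from limma. All 8 intervals include 0; those of miR-423-5p against scrambled are narrower than those of miR-423-3p, and all 3 values of miR-423-3p against scrambled lie below 0.

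The 5p arm made up most of the miR-423 reads in every library. Its share of the reads of both arms was 78.7%, 89.4% and 88.1% in ODD replicates 1 to 3. EVEN replicates 1 to 3 gave 83.5%, 92.9% and 87.4%, and the scrambled library gave 83.2%. The scrambled share lay within the ODD range and just below the EVEN range. As a ratio, there were 3.70 to 13.1 reads of miR-423-5p per read of miR-423-3p with X1 probes and 4.96 with scrambled probes.

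The shares averaged 85.4% ± 5.84 with ODD probes and 88.0% ± 4.71 with EVEN probes (SD, n = 3 each), a difference of -2.54 percentage points by which they did not separate (exact two-sided permutation p = 0.7, smallest possible 0.1). Without ODD replicate 1 the difference turned to 0.810 points. That library had the lowest share, with an exact 95% interval of 73.1% to 83.6% on 249 reads. EVEN replicate 2 had the highest, with an interval that starts at 90.4% on 522 reads, so these intervals do not overlap. The scrambled interval, 76.4% to 88.7% on 155 reads, overlapped all X1-probe intervals other than that of EVEN replicate 2. The same 2 libraries were the lowest and the highest in miR-423-5p level, while EVEN replicate 2 was the lowest in miR-423-3p. The sum of both arms varied less than the 5p arm, at 29985 ± 5026 RPM over the X1-probe libraries (SD, n = 6), against 33355 RPM in the scrambled capture. Its coefficient of variation over the X1-probe libraries was 16.8%, against 21.5% for the 5p arm alone.

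**Figure D3:**
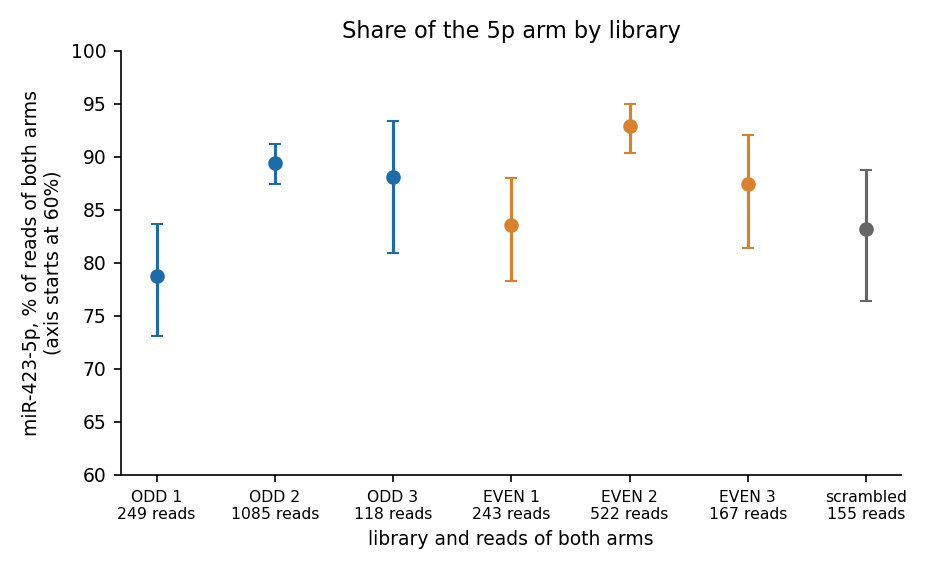
Share of miR-423-5p among the reads of both arms in each library, with exact 95% intervals; the axis does not start at 0. The scrambled library at 83.2% lies among the X1-probe libraries, and ODD replicate 1 at 78.7% and EVEN replicate 2 at 92.9% are the ends of the range.

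Arm shares were compared with those of other hairpins. The table held 29 hairpins with both arms and at least 100 reads over the 7 libraries. A mature name listed under more than 1 hairpin counts under each, so such shares are not those of 1 hairpin. For example, the pooled share of miR-125b-5p was 41.6% beside miR-125b-1-3p and 98.5% beside miR-125b-2-3p. The 5p arm led in 15 of them and the 3p arm in 14. Pooled over the libraries, miR-423 had 2233 reads of 5p and 306 of 3p, a share of 87.9%, which put it at position 14 from the most 5p-biased. The lesser arm held a smaller share than in miR-423 in 25 of the 28 other hairpins. The most 5p-biased was let-7i, a let-7 microRNA known as a tumour suppressor, at 99.9%. The least was miR-222, a microRNA studied in melanoma growth, at 0.368%. These ends rest on few reads of the lesser arm, 1 for let-7i and 5 for miR-222. With X1-probe libraries weighted equally, the least 5p-biased was miR-27b, at 0.282%. The hairpins nearest to miR-423 by ratio were miR-21, known to be raised in many tumours, then miR-125a and miR-30e. Their pooled shares were 87.9%, 92.5% and 94.2%.

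miR-423 varied more between libraries than miR-21. With each X1-probe library weighted equally, the share was 86.7% ± 4.94 for miR-423 and 88.1% ± 2.06 for miR-21 (SD, n = 6 each), which reverses their order and puts miR-423 at position 15. The 2 mean shares lay closer together than the SD of either. Both come from the same libraries, and a difference within libraries was not tested. In the scrambled library their shares were 83.2% and 81.5%.

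**Figure D4:**
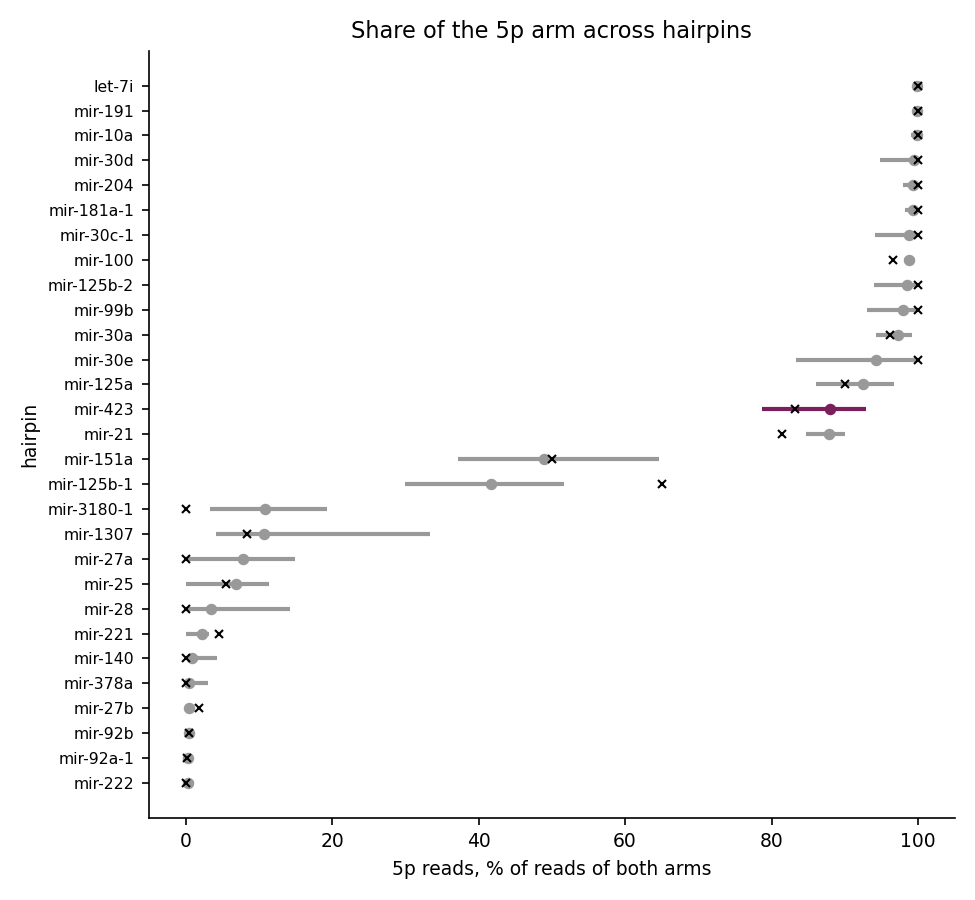
Share of 5p reads for the 29 hairpins with both arms measured; points are reads pooled over 7 libraries, bars the range of the 6 X1-probe libraries, and crosses the scrambled library. Most hairpins lie near 0% or 100%; miR-423 (purple) lies next to miR-21 with a pooled share of 87.9%.

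In mean level over the 7 libraries miR-423-5p held position 6 of 480. Levels are compared here as RPM, in which a read covers the whole of a short mature RNA. The microRNAs just above it were miR-92b-3p, miR-181a-5p and miR-191-5p, with 40027 ± 7654, 34561 ± 7769 and 32472 ± 6503 RPM with X1 probes (SD, n = 6 each). Just below it, miR-21-5p had 23955 ± 3927 RPM, miR-100-5p had 22980 ± 3635 RPM and miR-27b-3p had 21119 ± 1342 RPM (SD, n = 6 each). miR-92b-3p and miR-181a-5p exceeded miR-423-5p in 7 of 7 libraries and miR-191-5p in 6. Below it the order was not kept in every library: miR-21-5p exceeded miR-423-5p in 3 libraries, miR-100-5p in 2 and miR-27b-3p in 1. The means of these lower neighbours lay within 1 SD of that of miR-423-5p, so their order is not settled.

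Because miR-423-5p is often used for normalisation, its spread was placed in a list of 11 microRNAs used in that way. The list includes both arms of miR-423. All 11 were tested and 0 passed in any of the 4 comparisons. Of all tested microRNAs, 0.826% passed in each comparison against scrambled and 0.413% for ODD against EVEN, so 0 of 11 sets the list apart in none. For X1 probes against scrambled the median log2 difference of the list was 0.022, against 0.096 over all 242 tested. By the SD of log2(RPM + 10) over the X1-probe libraries, miR-423-5p (0.32) held position 6 and miR-423-3p (0.35) position 7 from the steadiest. let-7a-5p (0.26), miR-151a-5p (0.26) and miR-191-5p (0.28) varied less. miR-103a-3p (0.44) and miR-93-5p (0.58), a relative of miR-17, varied more. Among the 26 microRNAs of at least 5000 RPM on average, a limit set after the values were seen, miR-423-5p held position 20 from the steadiest, where the median SD was 0.28. Low members of the list have more counting error, so these SDs are descriptions of the libraries.

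The profile of miR-423-5p over the 7 libraries was compared with those of the other 67 microRNAs of at least 1000 RPM on average, by Pearson correlation of log2(RPM + 10). All profiles share the same libraries, depths and RPM totals, so the values are descriptions and carry no test. The most alike were miR-27b-3p (r = 0.84, Spearman's rho = 0.75), miR-182-5p (0.82, 0.68), miR-5701 (0.70, 0.68), miR-4449 (0.67, 0.86) and miR-181a-5p (0.65, 0.79). miR-182-5p, for example, had 4990, 7350 and 8150 RPM in ODD replicates 1 to 3, 6350, 8142 and 8601 RPM in the EVEN replicates and 10329 RPM with scrambled probes. It was lowest in ODD replicate 1 and then in EVEN replicate 1, as miR-423-5p was. Without those 2 libraries, which lie farthest from the median of miR-423-5p, r was 0.44, -0.0072, 0.19, 0.47 and 0.66 in the same order, so the likeness of miR-182-5p and miR-5701 rested on them.

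The profiles least like miR-423-5p were those of miR-16-5p (r = -0.92, Spearman's rho = -0.82), miR-30e-5p (-0.89, -0.82) and miR-99b-5p (-0.83, -0.68). miR-16-5p, of the miR-15/16 family, had 7947, 5661 and 4939 RPM in ODD replicates 1 to 3, 5596, 4416 and 4615 RPM in the EVEN replicates and 4949 RPM with scrambled probes. It was highest where miR-423-5p was lowest and lowest where miR-423-5p was highest. Without the 2 farthest libraries r was -0.72 for miR-16-5p, -0.49 for miR-30e-5p and 0.10 for miR-99b-5p, so the last rested on them.

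The other arm was not among the profiles most like miR-423-5p. miR-423-3p stood at position 54 of 67 in likeness to miR-423-5p, with r = -0.51 and Spearman's rho = -0.32 over 7 libraries, and r = -0.36 without ODD and EVEN replicates 1. Without ODD and EVEN replicates 2, the libraries farthest from the median of miR-423-3p, r was -0.072, so the negative correlation rested in large part on those 2. The profile most like that of miR-423-3p was that of miR-100-5p (r = 0.86) and the least that of miR-125b-1-3p (r = -0.97), a microRNA from the other arm of a miR-125b hairpin. The profile of miR-423-3p was drawn from 14 to 53 reads in each library other than ODD replicate 2.

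**Figure D5:**
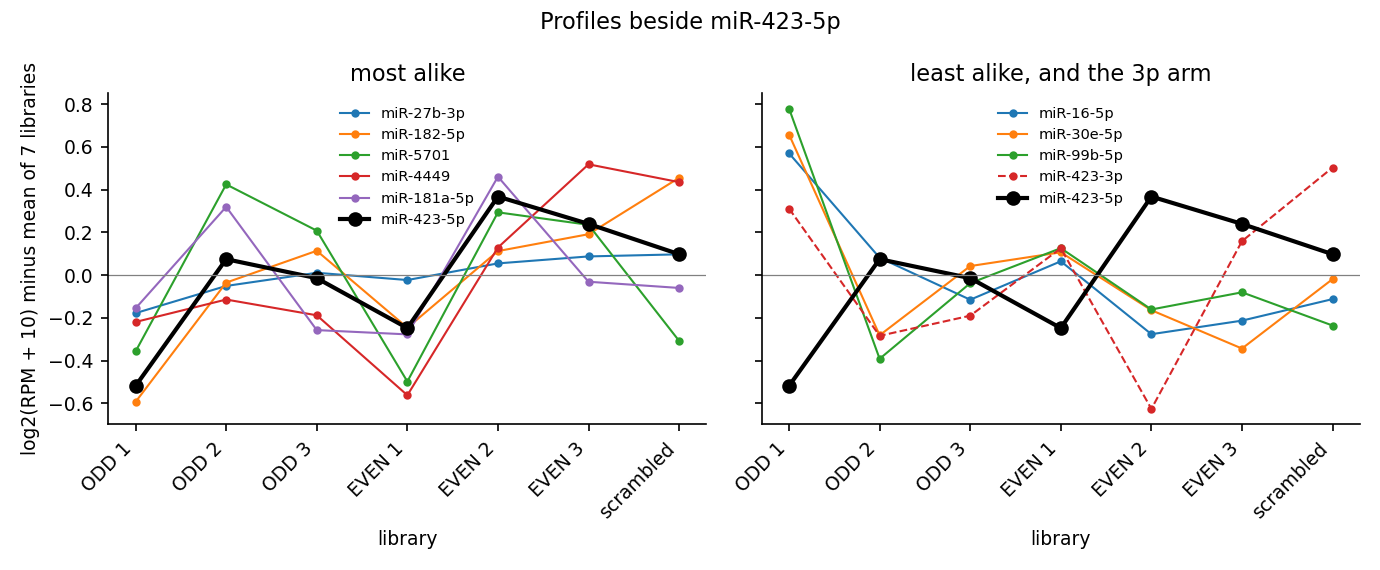
Log2(RPM + 10) of each microRNA minus its mean over the 7 libraries, with miR-423-5p in black; left, the 5 most alike profiles, right, the 3 least alike and miR-423-3p (dashed). ODD replicate 1 and EVEN replicate 1 are the low points of miR-423-5p, and miR-16-5p is highest in ODD replicate 1.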

How the data were processed

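Each of the 498 rows pairs a hairpin with a mature microRNA, and the authors deposited its RPM, reads per 1e+06 reads summed over all rows of the library, in each of 7 libraries. CASAVA 1.8 and cutadapt 1.2.1 are named per the submitters' processing notes. How reads were aligned and counted, with which annotation and build, is not given in the sources used here. Where a mature name had several rows (17 names), the row with the most RPM was used; both miR-423 arms have 1 row. Groups came from the sample titles. limma 3.58.1 in R 4.3.3 was fitted to log2(RPM + 10), eBayes with trend, over microRNAs with at least 10 RPM in at least 3 libraries, with residual degrees of freedom of 4 and a prior of 28.6. Single values were tested with exact permutations (scipy 1.17.1), and intervals are exact 95% intervals on recovered reads. The microRNAs named are both arms, those sharing a seed or the locus, 3 level neighbours on each side, the 5 most alike profiles, the normalisation list, the markers, and the nearest and most extreme arm ratios. The least alike profiles and those named beside miR-423-3p were added after the values were seen. The members and lists were chosen with earlier results of these data known. The alternatives were other pseudocounts, filters, scalings, rows, no trend, a replicate block and leaving out libraries.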

Additional observations from a re-analysis of the deposited data

How the results depend on the processing

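Neither arm passed in any of the 4 comparisons under the 16 alternatives run on each. Over them, the log2 difference for X1 probes against scrambled ran from -0.18 to 0.015 for miR-423-5p and from -0.70 to -0.46 for miR-423-3p (limma, adjusted p from 0.757 to 1 and from 0.541 to 0.769). For ODD against scrambled they ran from -0.36 to -0.068 for miR-423-5p and from -0.74 to -0.44 for miR-423-3p. For EVEN against scrambled miR-423-5p was -0.068 under quantile normalization and -0.10 to 0.21 when leaving out 1 library. For ODD against EVEN miR-423-3p was -0.049 under quantile normalization and -0.20 to 0.20 when leaving out 1 library, and miR-423-5p was -0.46 to -0.090. The difference in miR-423-5p level between probe sets ran from -8342 to -2145 RPM, and that in arm share from -4.75 to 0.810 points when leaving out 1 library. The cause of these sign changes was not tested. Calls among all tested microRNAs, 2 against scrambled and 1 between probe sets, ran from 0 to 12 and from 0 to 3. They were 12 for X1 probes with no filter and 0 under pseudocount 250. The planned count models were not run, although whole reads could be recovered from the RPM.

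Over all tested microRNAs, replicate numbers showed no clear pairing of the libraries. Deviations of same-numbered ODD and EVEN libraries correlated at -0.044, 0.072 and 0.019 over 242 microRNAs. Of 6 libraries, 3 correlated best with their own number. Over the 68 microRNAs of at least 1000 RPM on average, the same correlations were -0.060, -0.040 and -0.38. There, 0 of 6 libraries correlated best with their own number. With 3 libraries in each set, these values cannot exclude a pairing. The labels also number replicates 1 to 3 as 9, 10 and 12, and the scrambled library carries 12, so the replicate block sets it against ODD and EVEN replicate 3. With the block, calls went to 0 in each comparison, miR-423-5p was 0.015 for X1 probes against scrambled, and ODD against EVEN was -0.27 (95% interval -0.51 to -0.032, limma adjusted p = 0.795). In same-numbered libraries the ODD level of miR-423-5p was 0.829, 0.816 and 0.839 times the EVEN level. Of the 242, 10.3% were lower with ODD in all 3 such pairs, as were 14.7% of the 68 of at least 1000 RPM. The SD of the 3 log2 differences was 0.020 for miR-423-5p, against a median of 0.38 over those 68. That SD is below the 0.10 in log2 RPM that counting error alone gives per library. The reads therefore cannot resolve how close the 3 ratios are. Only 1 of the 68, miR-423-5p itself, had an SD of differences as small as 0.020. These counts were made after the values were seen. Depth limits miR-423-3p most, with 14 reads in ODD replicate 3.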
